A study of Mus musculus with 50 samples.

Results

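Gpnmb, Lgals3, Ctsd, Psap and Lamp2 are 5 of the 1000 RNA targets counted by CosMx spatial molecular imaging in sections of aged mouse liver, and they are described here as lysosomal genes of macrophages. The genes were selected on their measured levels in cells with C1q transcripts, so those levels are given as a description and carry no test. Control mice were wild-type C57BL/6 animals, and HIRA KO mice were C57BL/6 animals with HIRA fl/fl alleles. All animals were 6 months old when AAV8-TBG-Cre was injected, and livers were collected 12 months later, at 18 months. The TBG promoter is active in hepatocytes, so the deletion was directed at hepatocytes and not at macrophages. The slide held 6 tissue areas, 3 of each group, imaged in 50 fields of view with 8 to 9 fields per area. The labels give the group of each field but name no mouse, so p-values measure the spread between areas. Hira itself was not among the targets, and the deletion was not checked in these counts.

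Lysosomes are the acidic compartments in which a cell breaks down what it has taken up, and macrophages depend on them to clear dying cells, lipid and iron. Ctsd encodes cathepsin D, an aspartic protease of the lysosome. Psap encodes prosaposin, the precursor of the saposins, which help lysosomal enzymes degrade sphingolipids. Lamp2 encodes a heavily glycosylated protein of the lysosomal membrane that is needed for autophagy. Gpnmb encodes a transmembrane glycoprotein of lysosomes and phagosomes, and Lgals3 encodes galectin-3, a sugar-binding protein that marks damaged lysosomes. Gpnmb and Lgals3 are widely used as markers of lipid-laden macrophages in liver and fat. The transcription factors TFEB, TFE3 and MITF bind short E-box elements in front of many lysosomal genes.

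Promoter windows of the genes are shown because several of the genes were high together in the same few cells, as described further on. RefSeq promoter windows in GRCm38.p6, from 250 bases before to 50 bases after a start site, were found for all 5 genes, with 2 windows for Psap. They were searched on both strands for TCACGTGA (the core of the lysosomal expression element), the E-box CACGTG contained in it, TCATGTG (a form bound by the MITF family) and TGACTCA (the AP-1 element, whose reverse complement is TGAGTCA). The Ctsd window held TCACGTGA once, 99 bases before the RefSeq start site, and CACGTG 2 times, one of them inside that element. The Gpnmb window held TGACTCA once, 8 bases after its RefSeq start site, and the first Psap window held TGAGTCA once, 18 bases before its own. TCATGTG was in none of the windows, and the windows of Lgals3 and Lamp2 and the second window of Psap held none of these letters. Of all 32851 promoter windows, 0.974% held TCACGTGA, 7.15% held CACGTG, 3.77% held TCATGTG and 5.20% held TGACTCA. In the stretches of 60 bases below, written 5′ to 3′ on the strand of the gene, capitals mark the element found. The stretches lie at chr7:142387907-142387966 (minus strand) for Ctsd, chr6:49036486-49036545 (plus strand) for Gpnmb and chr10:60277570-60277629 (plus strand) for Psap.
Ctsd: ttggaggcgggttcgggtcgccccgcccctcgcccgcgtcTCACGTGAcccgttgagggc
Gpnmb: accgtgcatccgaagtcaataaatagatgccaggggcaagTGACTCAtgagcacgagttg
Psap: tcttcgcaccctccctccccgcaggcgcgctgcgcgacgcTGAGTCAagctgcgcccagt
In the GENCODE annotation of GRCm38, Gpnmb spans chr6:49036546-49070929, Lgals3 chr14:47367751-47386160, Ctsd chr7:142375911-142388038, Psap chr10:60277627-60302597 and Lamp2 chrX:38401357-38456454. These spans do not begin at the RefSeq start sites used for the windows. By the GENCODE spans the Ctsd element and the whole Lgals3 window lie inside the gene, and the Gpnmb element lies before it. The positions of the imaging probes within the transcripts were not used here.

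Of 52132 segmented cells, 49665 were kept after 2215 cells with under 20 gene counts and 252 cells of over 5 times the geometric mean area were left out. Cells were divided by a rule rather than by clustering. The 8384 C1q-positive cells had at least 2 counts of C1qa, C1qb and C1qc together, which encode the complement subunits made by liver macrophages. The other cells were 25106 other small cells, under 15000 square pixels, and 16175 hepatocyte-sized cells at or above that area. Levels are given as CPM, counts scaled so that every sum of gene counts has the same total. The 5 Kupffer cell markers in the panel (Cd5l, Marco, Cd163, Csf1r and Cd68) together measured 6233 to 11963 CPM in C1q-positive cells of the 6 areas, and 2850 to 3910 CPM in the other classes. The 8 markers of other myeloid cells in the panel together measured 5142 to 6381 CPM in C1q-positive cells. They measured 5183 to 6155 CPM in the other classes, so these ranges overlapped. The C1q-positive class had no limit of area. Its median area was 13213 square pixels in HIRA KO area 1. In the other areas it was 16382.5 to 21636, above the 15000 that sets the hepatocyte-sized class. C1q-positive cells also held counts of other cell types. The 10 hepatocyte markers took 43652 to 55261 CPM in C1q-positive cells of control areas and 59644 to 87894 CPM in those of HIRA KO areas. In hepatocyte-sized cells the same markers took 55972 to 68464 CPM in control areas and 84621 to 124457 CPM in HIRA KO areas. In other small cells these markers took 32206 to 44064 CPM in control areas and 49114 to 69011 CPM in HIRA KO areas. They were thus higher in every HIRA KO area, and their part in the results below was not tested. Depth moved with the group as well, with 6.17 to 8.62 gene counts per 1000 square pixels of cell area in control areas and 10.3 to 11.3 in HIRA KO areas. The control areas lay on one side of the slide and the HIRA KO areas on the other, so side and genotype cannot be told apart.

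In the levels by class, Ctsd, Psap and Lgals3 were higher in C1q-positive cells than in both other classes in all 6 areas, Lamp2 was even across the classes, and Gpnmb had its highest levels in C1q-positive cells of 2 HIRA KO areas. The background was measured by 10 negative probes that match no transcript, whose mean was 291 to 437 CPM in C1q-positive cells, 289 to 396 CPM in other small cells and 431 to 536 CPM in hepatocyte-sized cells. Over all kept cells Gpnmb gave 3838 counts and Lgals3 4189, beside 3828 for the highest negative probe, whereas Lamp2 gave 9027, Ctsd 12760 and Psap 22048. Levels are set against the negative probes and between classes, not between genes, since probes differ in yield.

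Psap, the saposin precursor, measured 4473, 3034 and 5121 CPM in C1q-positive cells of control areas 1, 2 and 3 and 6779, 5099 and 5825 CPM in those of HIRA KO areas 1, 2 and 3. The groups overlapped, since control area 3 lay just above HIRA KO area 2. Its level in C1q-positive cells was 2.58-fold that in hepatocyte-sized cells and 1.49-fold that in other small cells (means over 6 areas on the log2 scale, 1.37 ± 0.20 and 0.57 ± 0.20 SD). Hepatocyte-sized cells held 1497 to 2253 CPM, far above the negative probes, so Psap was not limited to the C1q-positive class.

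Ctsd, the cathepsin D gene, measured 3190, 1929 and 3283 CPM in C1q-positive cells of control areas 1, 2 and 3 and 4003, 3207 and 2505 CPM in those of HIRA KO areas 1, 2 and 3. The groups overlapped widely, and control area 2 was the lowest of the 6. The ratio to hepatocyte-sized cells was 2.26-fold (log2 1.18 ± 0.23 SD, n = 6 areas) and the ratio to other small cells 1.68-fold (log2 0.74 ± 0.26). Lgals3, the galectin-3 gene, measured 1170, 608 and 913 CPM in C1q-positive cells of the control areas and 1305, 932 and 778 CPM in those of the HIRA KO areas. Its log2 ratio to hepatocyte-sized cells ran from 0.37 in control area 2 to 1.29 in HIRA KO area 1, and its ratio to other small cells was 1.75-fold (log2 0.81 ± 0.10). In hepatocyte-sized cells Lgals3 was 339 to 578 CPM, a range that reached below and above the mean negative probe there.

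Lamp2, the lysosomal membrane gene, went against the label of a macrophage gene in these data. It measured 1135, 1328 and 1161 CPM in C1q-positive cells of the control areas and 1235, 1340 and 1572 CPM in those of the HIRA KO areas. The log2 ratio was −0.01 ± 0.11 to hepatocyte-sized cells and 0.01 ± 0.07 to other small cells (SD, n = 6 areas). Gpnmb measured 541, 565 and 354 CPM in C1q-positive cells of the control areas and 1058, 1001 and 464 CPM in those of the HIRA KO areas. HIRA KO areas 1 and 2 stood above the other 4 areas, and HIRA KO area 3 lay among the controls. In control area 3 the Gpnmb level was below that of the mean negative probe in the same cells, 418 CPM. In hepatocyte-sized cells Gpnmb was 405 to 551 CPM, beside 431 to 536 CPM for the mean negative probe.

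**Figure D1:**
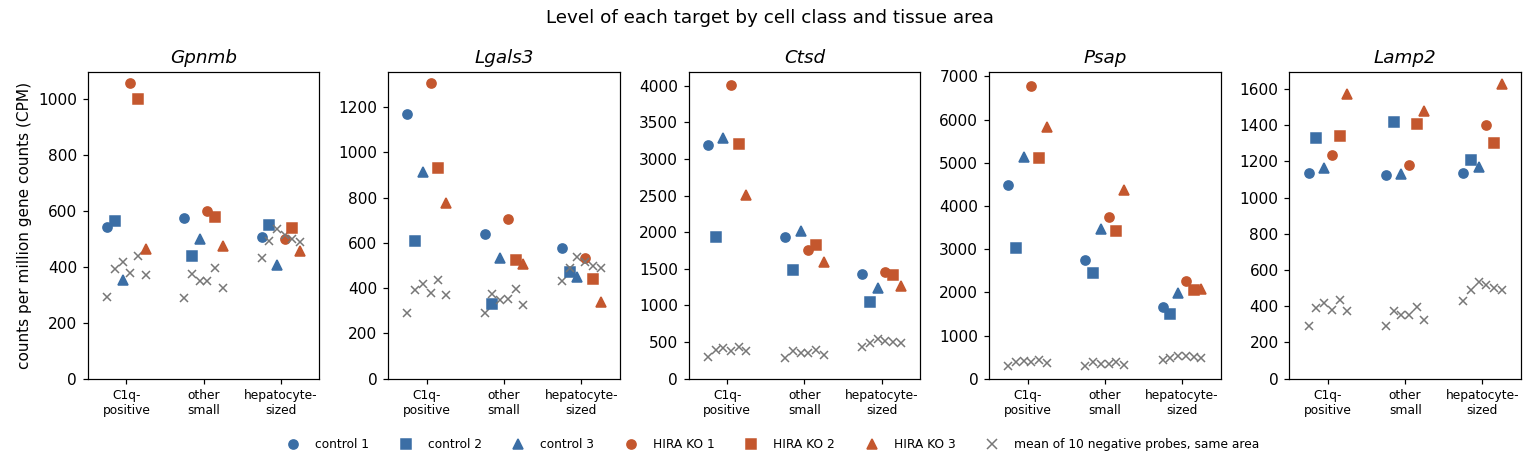
CPM of each gene (vertical axes start at 0 and differ between panels) in the 3 cell classes, with a point for each of the 6 tissue areas, blue for control and red for HIRA KO, and crosses for the mean of the 10 negative probes in the same cells. Psap, Ctsd and Lgals3 fall from C1q-positive to hepatocyte-sized cells, Lamp2 stays between 1125 and 1628 CPM in every class, and Gpnmb rises over 1000 CPM in C1q-positive cells of HIRA KO areas 1 and 2.

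The same order was seen along the number of C1q counts. From cells with a C1q sum of 0 through those with 6 or more, the mean over areas went from 2390 ± 473 to 8730 ± 1502 CPM for Psap, from 1423 ± 152 to 5114 ± 1444 CPM for Ctsd and from 487 ± 83.6 to 1479 ± 394 CPM for Lgals3 (SD, n = 6 areas). Lamp2 went from 1291 ± 167 to 1352 ± 318 CPM, a difference within the spread of the areas. The mean negative probe went the other way, from 436 ± 29.6 to 321 ± 59.0 CPM. On both sides of the limit of the class, cells with a C1q sum of 1 had 2766 CPM of Psap and 1639 CPM of Ctsd and those with a sum of 2 had 3606 and 2135 CPM. Lgals3 was 545 CPM below the limit and 670 CPM above it, and Gpnmb 530 and 591 CPM. On both sides of the limit of cell area, cells of 14000 to 15000 square pixels had 2576 CPM of Psap and 1431 CPM of Ctsd, and those of 15000 to 16000 had 2659 and 1562 CPM. The C1q-positive class is set by a count limit and is not named as a cell type. Means per C1q sum cannot tell a gradual change from a changing mix of cell types.

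The comparison of HIRA KO with control areas asked whether these genes differed by genotype in C1q-positive cells, in other small cells or in hepatocyte-sized cells. None of the 5 genes passed an adjusted p of 0.05 in any of the 3 classes. Most estimates were above 0, but they share the same areas and are not independent, and some changed sign with other processing, as given at the end. In C1q-positive cells Gpnmb had the highest estimate, a log2 fold change of 0.85 ± 0.31 (SE, 3 areas against 3), with p = 0.0267 and an adjusted p of 0.730 in edgeR's quasi-likelihood test. Psap followed with 0.58 ± 0.32 (adjusted p = 0.770 in edgeR). Lamp2, Ctsd and Lgals3 were at 0.31 ± 0.16, 0.29 ± 0.28 and 0.26 ± 0.26. Of 998 targets tested in this class, 5 were called (0.501%), namely Igha, Col1a1, Col3a1 and Vtn upwards and Cd163 downwards, so 0 of 5 of these genes stands beside a low background. At an unadjusted p under 0.05 there were 63 targets, Gpnmb among them. In 26 of the 998 targets (2.61%) the CPM of the 3 HIRA KO areas all lay above those of the 3 control areas, and none of the 5 genes did so in C1q-positive cells.

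The call for Gpnmb in C1q-positive cells depended on the design. With the slide row, which sets 1 control area beside 1 HIRA KO area, as a block, the estimate stayed at 0.86 ± 0.14 and passed the threshold (adjusted p = 7.4e-08 in edgeR, and 1.5e-05 without the robust estimate of the spread). In the fit the row was the number of the area (1, 2 or 3), which follows the order of field numbers. It is not a pairing given by the labels. A block in 3 areas against 3 leaves few degrees of freedom to measure the spread of a single gene. The adjusted p with the block therefore leans on the spread that edgeR shares over all targets. With this block 21 of 998 targets were called. Without HIRA KO area 3, which had the lowest Gpnmb level of the HIRA KO areas, the estimate was 1.12 ± 0.16 (adjusted p = 0.0011 in edgeR). Gpnmb was not called when any other single area was left out. When libraries were scaled to the negative probes, the estimate for Lgals3 was −0.00090, and this scaling put the median of all targets at −0.24.

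In hepatocyte-sized cells, a class set by area and low C1q counts alone, Lamp2 measured 1134, 1205 and 1168 CPM in the control areas and 1400, 1303 and 1628 CPM in the HIRA KO areas. Psap measured 1651, 1497 and 1993 CPM in the control areas and 2253, 2043 and 2075 CPM in the HIRA KO areas. Both genes were higher in every HIRA KO area than in every control area, as were 26 of the 998 targets (2.61%) in this class. The log2 fold change was 0.43 ± 0.12 for Lamp2 (adjusted p = 0.222 in edgeR) and 0.43 ± 0.15 for Psap (adjusted p = 0.381 in edgeR). Lamp2 passed the threshold with DESeq2 (adjusted p = 0.0319) and with the slide row as a block (adjusted p = 0.045 in edgeR). Ctsd was at 0.28 ± 0.12, Gpnmb at 0.14 ± 0.13 and Lgals3 at −0.08 ± 0.14, and Gpnmb was at −0.04 when scaled to the negative probes. Hepatocyte-sized cells were 40.3% ± 4.08 of the cells in control areas and 26.4% ± 2.20 in HIRA KO areas, with median depths of 124 to 189 and 180 to 234 counts, and the part of either in these values was not tested. Of the 998 targets, 3 were called in this class (0.301%), namely Igha, Igkc and Vtn.

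Other small cells, also set by area and low C1q counts alone, held hepatocyte marker counts that were higher in HIRA KO areas, as given above. In this class Psap was at 0.50 ± 0.27, Lgals3 at 0.28 ± 0.22, Lamp2 at 0.24 ± 0.16, Gpnmb at 0.20 ± 0.15 and Ctsd at 0.01 ± 0.18 (log2 fold change ± SE). The only target called was Igha, 0.1% of 998, and 29 targets (2.91%) were higher in every HIRA KO area than in every control area, none of them among the 5 genes. Whether the difference between genotypes itself differed between C1q-positive and hepatocyte-sized cells was tested as an interaction with the area as a block. It was 0.67 ± 0.32 for Gpnmb and 0.36 ± 0.16 for Lgals3 on the log2 scale (adjusted p = 0.944 in edgeR for both), and between −0.14 and 0.16 for Lamp2, Ctsd and Psap. None of the 5 passed, beside 3 of 998 targets (0.301%). Without HIRA KO area 3, the HIRA KO area with the lowest Gpnmb level in C1q-positive cells, the interaction for Gpnmb was 0.97 ± 0.15 and passed (adjusted p = 2.3e-05 in edgeR). It passed in 1 of 9 alternative settings, the one without that area.

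**Figure D2:**
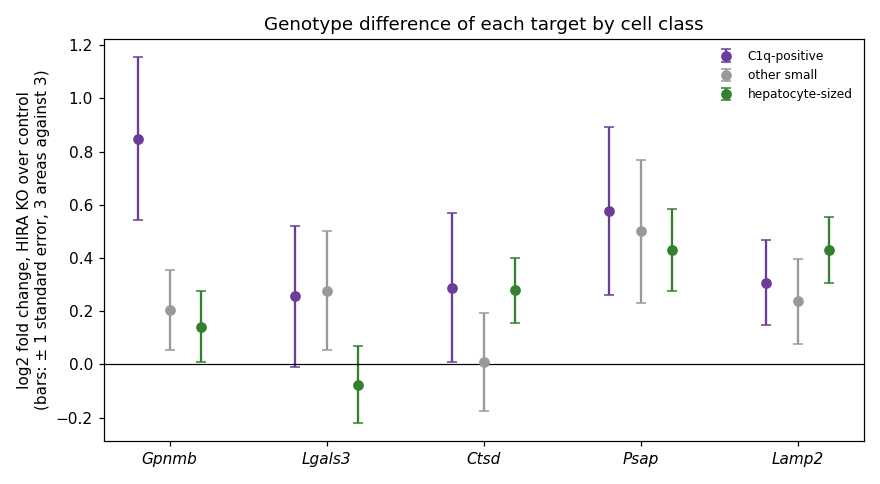
Log2 fold change of HIRA KO over control for each gene in the 3 cell classes, with bars of ± 1 standard error from edgeR's fit over 3 areas against 3. Lgals3 in hepatocyte-sized cells is the only estimate below 0, and Gpnmb in C1q-positive cells is the highest at 0.85. The median over all 998 targets was −0.0050 in C1q-positive, −0.0041 in other small and −0.0068 in hepatocyte-sized cells. All points come from the same 6 areas and are not independent.

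Much of the Gpnmb in C1q-positive cells of the 2 highest areas was held by few cells. Gpnmb had at least 1 count in 7.91%, 10.2% and 4.66% of C1q-positive cells in control areas 1, 2 and 3 and in 10.3%, 13.1% and 9.80% in HIRA KO areas 1, 2 and 3. A mean negative probe had a count in 4.59% to 8.73% of the same cells. The group means were 7.59% ± 2.78 and 11.1% ± 1.77 (SD, n = 3 areas each), and an exact two-sided permutation test gave p = 0.2, where 0.1 is the smallest that 3 areas against 3 can give. The areas overlapped, and when each cell was thinned to 80 counts the means were 3.85% and 4.80%. With a C1q sum of at least 4 the shares were 3.93% to 9.42% in control and 10.3% to 16.9% in HIRA KO areas and did not overlap (exact permutation p = 0.1). Under the same limit 111 of the 664 targets found in at least 320 cells (16.7%) and 3 of 10 negative probes were also higher in every HIRA KO area, so the lack of overlap for Gpnmb stands beside a common one.

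Higher counts per cell separated 2 areas from the rest. The limit of 3 counts in a cell was chosen after its values were seen, and what follows from it is a description. At least 3 Gpnmb counts were found in 26 of 1375 C1q-positive cells of HIRA KO area 1 (1.89%, 95% exact binomial interval 1.24% to 2.76%) and in 19 of 1610 of HIRA KO area 2 (1.18%, 0.712% to 1.84%). HIRA KO area 3 had 2 such cells of 2101, although it held the most C1q-positive cells. Control areas 1 and 2 had 1 of 1012 and 2 of 1128, and control area 3 had 0 of 1158, for which the same interval ends at 0.318%. A simpler upper bound for a count of 0, 3 divided by the number of cells, is 0.259% there. Intervals cover counting error only. The negative probe with the most such cells had 1 in HIRA KO area 1, 5 in HIRA KO area 2 and 8 in HIRA KO area 3. At least 5 Gpnmb counts were found in 14 cells of HIRA KO area 1 and 10 of HIRA KO area 2 and in no other area, and at least 10 in 3 and 5 cells. Over all areas 1 C1q-positive cell reached 5 counts of a given negative probe, the highest such count, while the highest Gpnmb count was 21.

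**Figure D3:**
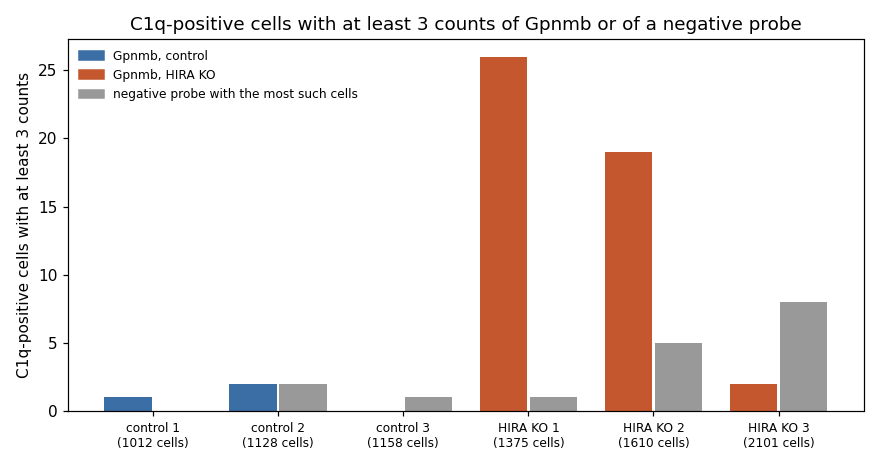
Number of C1q-positive cells with at least 3 counts of Gpnmb (blue for control, red for HIRA KO) and of the negative probe with the most such cells (grey) in each tissue area. HIRA KO areas 1 and 2 hold 26 and 19 Gpnmb cells, and the other 4 areas hold 0 to 2.

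These cells carried much of the Gpnmb signal. In HIRA KO areas 1 and 2 they held 49.5% and 39.1% of the Gpnmb counts of C1q-positive cells, and without them the Gpnmb level was 552 and 620 CPM. The corresponding values were 524, 542 and 354 CPM in the control areas and 452 CPM in HIRA KO area 3. Outside the C1q-positive class, 8 other small cells and 26 hepatocyte-sized cells had at least 3 Gpnmb counts. The negative probes gave 0 to 4 and 4 to 29 such cells, so the number in the hepatocyte-sized class lay within that of the probes, while the highest count in a cell there was 9 for Gpnmb and 5 for a probe. In the 3 such hepatocyte-sized cells of HIRA KO area 1 Ctsd was 19782 CPM and Psap 21761 CPM, against 1405 and 2167 CPM in hepatocyte-sized cells without Gpnmb. In the 11 of HIRA KO area 2 Ctsd was 6680 CPM and Psap 4647 CPM, against 1370 and 2008 CPM. These levels rest on 20 counts of Ctsd and 22 of Psap in HIRA KO area 1 and on 23 and 16 in HIRA KO area 2. A C1q sum of 1, just under the class limit, was found in 1 of the 3 cells and 6 of the 11. Among hepatocyte-sized cells without Gpnmb it was found in 699 of 2255 and 916 of 2599.

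The Gpnmb-high cells were also high in Ctsd, Lgals3 and Psap. Counts of these genes were not used to pick the cells. The genes, the count limit and HIRA KO areas 1 and 2 were, however, chosen with values of these data known. The levels that follow are therefore given as a description. In HIRA KO area 1 the Ctsd level was 19633 CPM in the 26 cells (95% exact Poisson interval 16784 to 22826, counting error only) and 3175 CPM in the 1233 C1q-positive cells without a Gpnmb count. In HIRA KO area 2 it was 17028 CPM in the 19 cells (13941 to 20595) and 2832 CPM in 1399 cells. The log2 ratio of CPM plus 200 was 2.55 and 2.51. Cathepsin D transcripts were found in 23 of the 26 cells and in 19 of the 19, against 37.8% and 39.2% of the cells without Gpnmb.

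Lgals3 was at 6273 CPM (4713 to 8185) and 5783 CPM (4050 to 8006) in the Gpnmb-high cells of the 2 areas, against 1025 and 850 CPM, with log2 ratios of 2.40 and 2.51. Psap was at 31250.0 CPM (27627 to 35216) and 17831 CPM (14669 to 21474) against 5470 and 4712 CPM, with log2 ratios of 2.47 and 1.88. Lamp2 was at 1510 CPM (804 to 2583) and 1446 CPM (661 to 2745) against 1210 and 1367 CPM, with log2 ratios of 0.28 and 0.07, so the intervals held the level of the cells without Gpnmb. The mean negative probe was 279 and 402 CPM in the Gpnmb-high cells and 394 and 438 CPM in the others. The background was thus no higher in the Gpnmb-high cells, which were deeper, with a median of 335 and 289 gene counts against 173 and 203. In the 48 C1q-positive cells with at least 3 counts of a negative probe, the median depth was 401.5 counts, and Ctsd was 2003 CPM, Lgals3 866 CPM and Psap 4982 CPM, beside 2760, 862 and 4955 CPM in all C1q-positive cells without Gpnmb.

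The cell with the most Gpnmb, in HIRA KO area 2, had 21 counts of Gpnmb, 19 of Ctsd, 18 of Psap and 9 of Lgals3 among its 515 gene counts. The next, in HIRA KO area 1, had 19 counts of Gpnmb, 15 of Ctsd, 13 of Psap and 0 of Lgals3 among 333. Of the 50 Gpnmb-high cells of all areas, 42 (84%) also had at least 3 counts of Psap, 37 (74%) at least 3 of Ctsd, 12 (24%) at least 3 of Lgals3 and 1 (2%) at least 3 of Lamp2. In the other direction these shared cells were 3.87% of the 1084 Psap-high cells, 8.71% of the 425 Ctsd-high cells and 20.7% of the 58 Lgals3-high cells. Most cells with high Psap or Ctsd thus had fewer than 3 Gpnmb counts. Psap-high cells were 6.23% to 7.60% of C1q-positive cells in control areas and 14.2% to 19.7% in HIRA KO areas, and Ctsd-high cells 2.77% to 3.63% and 4.81% to 7.42%. Neither range overlapped, as was so, higher in HIRA KO areas, for 40 of the 219 targets with at least 50 such cells (18.3%) and for 0 of 10 negative probes. Median depths were 179 to 224 counts in HIRA KO areas against 134 to 203, and their part in these shares was not tested. Lgals3-high cells were 0% to 0.593% in control areas and 0.571% to 1.45% in HIRA KO areas, which overlapped.

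Of 996 targets other than Gpnmb and the C1q genes, 21 (2.11%) had a log2 ratio over 1 in HIRA KO area 1 and 30 (3.01%) in HIRA KO area 2, and Ctsd, Lgals3 and Psap were among them in both. In each area separately, the targets with the highest and lowest ratios were picked and read in the other area. Of the 10 highest in HIRA KO area 1, 10 were above 0 and 6 above 1 in HIRA KO area 2. Of the 10 highest in HIRA KO area 2, 9 were above 0 and 6 above 1 in HIRA KO area 1. The median ratio over all targets was −0.22 in HIRA KO area 1 and −0.17 in HIRA KO area 2. The lowest targets repeated less often. Of the 10 lowest in HIRA KO area 1, 4 were lower by over 1 in HIRA KO area 2, beside 129 of all 996. Of the 10 lowest in HIRA KO area 2, 2 were lower by over 1 in HIRA KO area 1, beside 113 of all 996. In both areas the ratio was over 1 for 7 targets, which were Ctsd, Lgals3, Psap, Fabp5, Pld3, Ighm and Col1a1. More targets, 25 of the 996 (2.51%), were lower by over 1 in both areas, among them Ttr, Vtn and Gc, which encode plasma proteins made by hepatocytes, and the part of hepatocyte counts in these ratios was not tested. Fabp5, a fatty acid carrier of macrophages, had ratios of 1.94 and 2.21, and Pld3, which encodes a lysosomal nuclease, had 1.22 and 1.64. Ighm and Col1a1 are genes of B cells and of collagen-producing cells, and their ratios were 1.42 and 1.56 for Ighm and 1.26 and 1.18 for Col1a1. The part of such cells in these ratios was not tested. Mmp12, the macrophage elastase gene, had 2.35 and 0.87, and Cd63, a marker of late endosomes, had 1.74 and 0.99. Marco and Spp1 had few counts in the Gpnmb-high cells, 0 and 2 of Marco and 1 of Spp1 in each area. In HIRA KO area 1 the 95% exact Poisson intervals ended at 429 CPM for Marco and 647 CPM for Spp1. The cells without Gpnmb there had 768 and 901 CPM. In HIRA KO area 2 the intervals held the level of the cells without Gpnmb, 592 CPM for Marco and 647 CPM for Spp1. Cd5l, a marker of resident Kupffer cells, had ratios of 0.43 and 0.97 and was found in 16 of the 26 and 15 of the 19 cells. It was found in 426 of the 1233 and 482 of the 1399 cells without Gpnmb, which were less deep, as given above. In HIRA KO area 1 its interval, 3026 to 5925 CPM, held the 3145 CPM of the cells without Gpnmb. In HIRA KO area 2 the interval was 4050 to 8006 CPM, above their 2848 CPM. The other Kupffer cell markers were at −0.35 and −0.49 for Cd163, −0.50 and −0.45 for Csf1r, −2.27 and −0.60 for Marco and 1.06 and 0.96 for Cd68, so the markers did not move one way. For Cd163 and Csf1r the intervals held the level of the cells without Gpnmb in both areas, so their ratios lay within counting error.

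**Figure D4:**
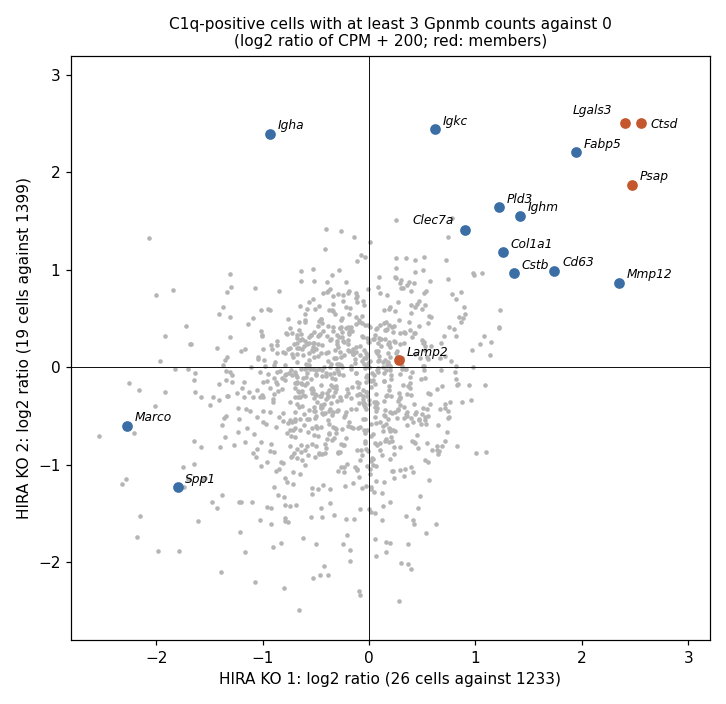
Log2 ratio of CPM plus 200 between C1q-positive cells with at least 3 Gpnmb counts and those with 0, for 996 targets, in HIRA KO area 1 (horizontal) and HIRA KO area 2 (vertical). Ctsd, Lgals3 and Psap (red) lie at the upper right with Fabp5, while Lamp2 lies near 0 in both areas.

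The same relation was read in all 6 areas with the milder split of at least 1 Gpnmb count against 0. In HIRA KO area 1 Ctsd was 9058 CPM in 142 Gpnmb-positive cells and 3175 CPM in the others, and in HIRA KO area 2 it was 5120 CPM in 211 cells and 2832 CPM. In HIRA KO area 3 it was 2482 and 2508 CPM. In the control areas Ctsd was lower in the Gpnmb-positive cells, with 2789 against 3234, 1358 against 2016 and 2997 against 3301 CPM. In control areas 1, 2 and 3 Gpnmb had a count in 80, 115 and 54 C1q-positive cells. The negative probe with the most had 62, 114 and 83 such cells, and the mean probe 46.5, 86.2 and 63.1. The Gpnmb-positive cells there were deeper, with medians of 186.5, 277 and 186.5 gene counts against 148.5, 196 and 132. Many of these Gpnmb counts may be background, so the split cannot show whether the relation reverses in the control areas. Lgals3 had log2 ratios of 1.55, 0.67 and 0.12 in the HIRA KO areas and −0.20, −0.59 and 0.09 in the control areas. Psap had 1.43, 0.59 and −0.09 in the HIRA KO areas and 0.17, −0.30 and 0.06 in the control areas. Over the 6 areas together the fitted log2 fold change was 0.50 ± 0.31 for Lgals3, 0.37 ± 0.34 for Ctsd, 0.36 ± 0.27 for Psap and 0.02 ± 0.11 for Lamp2, and no adjusted p was below 0.832 in edgeR. Of the 994 targets tested, 0 were called (0%) by edgeR and 0 by DESeq2, with 58 and 25 at an unadjusted p under 0.05. A difference between the genotypes in this split was not tested.

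Gpnmb-positive cells were set against Gpnmb-negative ones for the CD45 stain, a protein on the surface of blood-derived cells including macrophages. The median log2 intensity was higher by 0.92 in HIRA KO area 1 and by 0.12 in HIRA KO area 2 and differed by −0.29 in HIRA KO area 3 and by −0.17, −0.39 and −0.26 in the control areas. The mean difference was −0.01 ± 0.49 (SD, n = 6 areas, exact sign-flip permutation p = 0.969, where 0.0312 is the smallest possible). In the Gpnmb-high cells of HIRA KO areas 1 and 2 the median intensity was 4827 and 2872, against 2105 and 1513 in cells without Gpnmb.

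Gpnmb-positive cells lay close together in HIRA KO area 1. Among the 20 nearest C1q-positive cells of the same field, 20.2% were Gpnmb-positive around a Gpnmb-positive cell and 9.57% around a Gpnmb-negative one. The difference was 10.6 percentage points there, 0.30 in HIRA KO area 2, −0.01 in HIRA KO area 3 and between −1.67 and 0.55 in the control areas. The mean over areas was 1.51 ± 4.55 (SD, n = 6, exact sign-flip permutation p = 0.75) and fell to −0.32 without HIRA KO area 1. Of the 26 Gpnmb-high cells of HIRA KO area 1, 13 had another among their 5 nearest C1q-positive cells, as had 5 of the 19 of HIRA KO area 2. They lay in 5 of 8 fields of HIRA KO area 1 and in 6 of 9 fields of HIRA KO area 2, with up to 8 in a single field in each.

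**Figure D5:**
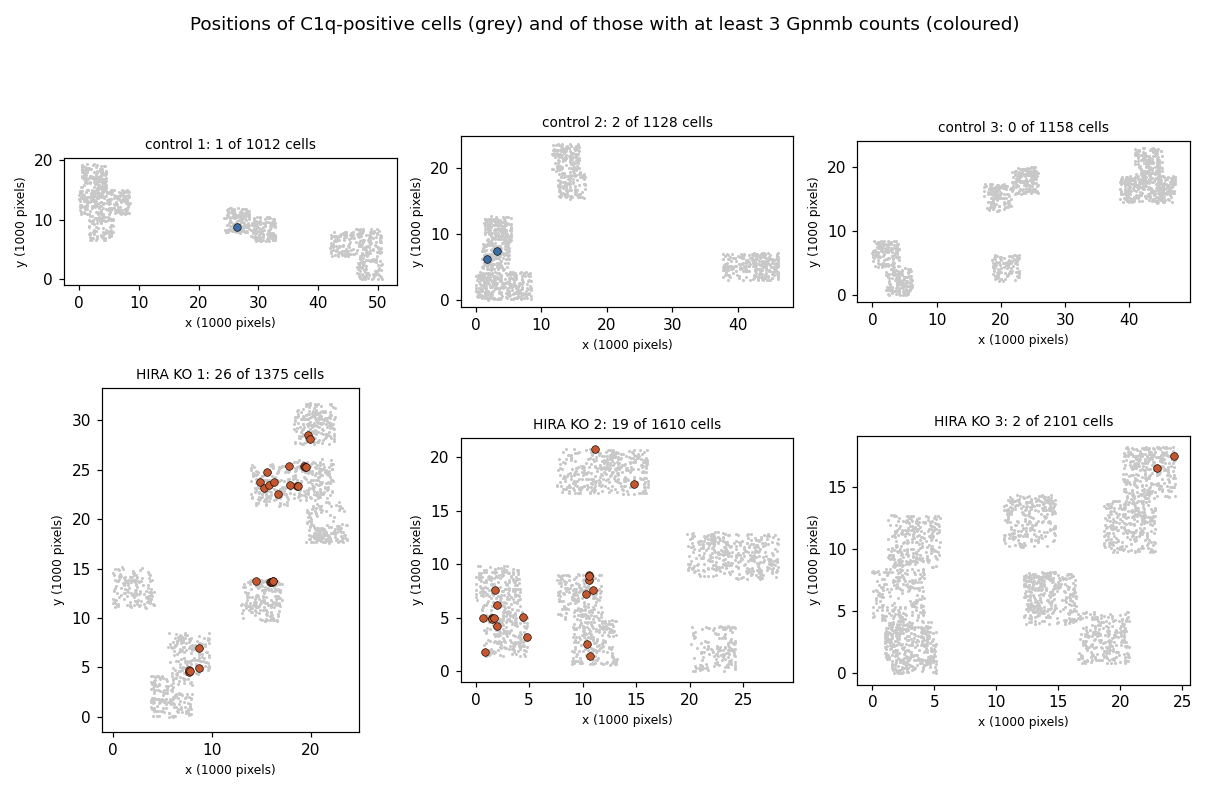
Positions of C1q-positive cells (grey) in each tissue area and of those with at least 3 Gpnmb counts (coloured), in units of 1000 pixels from the area's corner, with blocks of points where fields of view were imaged. The 26 cells of HIRA KO area 1 and 19 of HIRA KO area 2 lie in several fields, some of them in tight groups.

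Levels also varied within areas. Over the 8 fields of HIRA KO area 1 Gpnmb in C1q-positive cells ranged from 194 to 2497 CPM with a median of 966, and over the 9 fields of HIRA KO area 2 from 382 to 2085 CPM with a median of 725. In the other 4 areas no field exceeded 811 CPM. The field with the most Gpnmb in HIRA KO area 1 (field 16) was also the field with the most Ctsd there, 5532 CPM. Field 28 of HIRA KO area 2 was the highest of its area for Gpnmb, for Ctsd at 4738 CPM and for Psap at 7419 CPM. Fields of 1 area share a section and are not replicates.

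Other genes of the lysosome and of lipid-handling phagocytes did not pass the test between genotypes. Of 8 further lysosome genes in the panel, among them Cd63, Cd68, Tfeb and Acp5, 0 were called in any class, and their median log2 fold change in C1q-positive cells was 0.09 beside −0.0050 over all targets. Of 15 genes of lipid-handling phagocytes, 0 were called in any class, and the median was 0.16. Spp1, the osteopontin gene, and Fabp5 had the lowest p among them, at 0.48 and 0.33 (adjusted p = 0.730 in edgeR for both). Of 3 further galectin genes 0 were called, with Lgals1 at 0.31. Of 7 MHC class II genes 0 were called, though all 7 estimates were above 0 in every class, with a median of 0.49 in C1q-positive cells and H2-Aa at 0.78. Of the 5 Kupffer cell markers 1, the haemoglobin scavenger receptor gene Cd163, fell by 1.07 on the log2 scale in C1q-positive cells (adjusted p = 0.000749 in edgeR). In the Gpnmb-high cells the further lysosome genes had a median log2 ratio of 0.84 in HIRA KO area 1 and −0.22 in HIRA KO area 2, beside −0.22 and −0.17 over all targets. The lipid-handling genes had 0.72 and 0.52, with 2 and 4 of the 15 over 1 and 2 in each area under −1.

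The targets whose pattern was most like each gene were read over 18 sums, the 3 classes in 6 areas, among 757 targets whose total was above the highest negative probe. The classes of an area share its section and depth, so these correlations of log2 CPM are given without a test. Lgals3 was most like Ctsd (r = 0.90), Fcer1g (0.89) and H2-DMb1 (0.87). Ctsd was most like H2-DMb1 (0.90), Sat1 (0.90) and Lgals3 (0.90), and Psap was most like Pfn1 (0.96), Cotl1 (0.94) and H2-Aa (0.93). Lamp2 followed Selenop (0.86), Atp5e (0.79) and Gpx1 (0.78), and its r was −0.37 with Lgals3 and −0.17 with Ctsd. Gpnmb had no close match, with Cd14 at 0.62, Pld3 at 0.59 and Mif at 0.55.

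Within cells, Ctsd and Psap had lower nuclear shares than the median target and Gpnmb a higher one. Of the transcripts inside cells, 40.7% of Ctsd, 41.7% of Psap, 46.02% of Lamp2, 49.2% of Lgals3 and 56.6% of Gpnmb were in the nuclear mask. The median was 50.4% over the 735 targets above the highest negative probe in the transcript table, and 28.9% for the negative probes. Gpnmb was 49.03% nuclear in C1q-positive cells, 58.4% in hepatocyte-sized cells and 62.9% in other small cells. In the membrane mask, C1q-positive cells held 26.02% of their Ctsd and 26.2% of their Psap transcripts, more than the other classes, where the shares were 16.9% to 21.7%. Between 5.07% and 6.06% of each gene's transcripts lay outside any cell, against 9.88% of negative probe counts.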

How the data were processed

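Sections of 5 µm from the median lobe were profiled by CosMx with a panel of 1000 targets and 10 negative probes. The authors deposited raw counts per cell and target, and per the file headers also the cell area as a signal in pixels, the mean CD45 stain as an intensity, cell positions, and a table of single transcripts. The authors' own analysis used Seurat, SCTransform and Harmony, whose output was not used here. The imaging software, the pixel size and the segmentation settings are not given in the sources used here. Cells under 20 counts or above 5 times the geometric mean area were removed, following the filters the paper describes. Fields were grouped into areas by consecutive field numbers of 1 genotype in the labels. Members, classes and gene lists were chosen with earlier results of these data known. Counts were summed per class and area, giving 168333 to 691565 gene counts per sum, and tested over all targets with edgeR 4.0.16 (TMM, filterByExpr, robust quasi-likelihood F test, Benjamini-Hochberg, threshold 0.05) in R 4.3.3. Standard errors were derived from the estimate and F. DESeq2 1.42.0 was an alternative. The edgeR script was tested on simulated data. Single values were tested over areas with exact permutation tests in SciPy 1.17.1. CPM are relative to gene counts, and no depth correction per cell was made except thinning to 80 counts. Genes named are the members, the 3 targets most correlated with each (log2 CPM over 18 sums), up to 10 per direction past the threshold in the Gpnmb split, and up to 4 per list of lowest p. All others, such as those called between genotypes or high in Gpnmb-high cells, were chosen after their values were seen. No column was left unmapped. Alternatives with negative-probe scaling, without the robust estimate or with at least 3 Gpnmb counts, and the shares that do not overlap over all targets, were chosen after seeing the data.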

Additional observations from a re-analysis of the deposited data

How the results depend on the processing

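The 5 genes kept their direction and their side of the threshold in 320 of 347 alternative values, 6 passed the threshold (those given above for Gpnmb and Lamp2) and 21 changed sign. The number of targets called between genotypes in C1q-positive cells, 5 as reported, was 1 with a C1q sum of at least 4, 3 without hepatocyte markers, with a minimum of 50 counts or without the robust estimate, 2 with negative-probe scaling, 21 with the slide row as a block, 13 with that block and no robust estimate, and 3 to 5 without 1 area. In other small cells (1), there were 0 with a C1q sum of 0, 9 with DESeq2, 2 without the cell filter, 9 with the block, 5 with the block and no robust estimate, and 1 to 4 without 1 area. In hepatocyte-sized cells (3), there were 14 with DESeq2, 0 with negative-probe scaling, 17 with the block, 14 with the block and no robust estimate, and 2 to 4 without 1 area. The interaction (3) gave 1 with a C1q sum of at least 4 and 2 to 12 without 1 area, the 12 without HIRA KO area 2. The Gpnmb split (0) gave 3 with a C1q sum of at least 4 and 0 to 3 without 1 area. Some log2 changes crossed 0. For Lgals3 in C1q-positive cells they were −0.00090 with negative-probe scaling and −0.0031 to 0.50 without 1 area. For Ctsd in other small cells they were −0.068 with library size only, −0.014 with a minimum of 50 counts, −0.18 with negative-probe scaling, −0.0030 with a C1q sum of 0 and −0.14 to 0.12 without 1 area. In hepatocyte-sized cells, Gpnmb was −0.041 with negative-probe scaling and Lgals3 −0.19 to 0.038 without 1 area. The Ctsd interaction was −0.074 with a C1q sum of at least 4 and −0.13 to 0.18 without 1 area. Lamp2 in the Gpnmb split was −0.0039 with at least 2 counts, −0.089 with a C1q sum of at least 4, −0.12 under 15000 square pixels, −0.47 in thinned cells and −0.017 to 0.095 without 1 area. Without 1 area the CD45 difference was −0.20 to 0.064 and that of neighbours −0.32 to 2.14. The cause of these shifts was not tested. There were 3 areas per group, and the Gpnmb total was close to that of the highest negative probe.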
